A study of Mus musculus with 8 samples.

Results

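A set of 10 genes of the acute-phase and alarmin response, among them secreted proteins, alarmins, a cytokine, a receptor chain and a feedback inhibitor, was followed in the pancreas of mice with and without the transcription factor Bach2. The genes were Lrg1, Lcn2, Hp, Saa3, S100a8, S100a9, Il33, Il1b, Socs3 and Osmr, out of 21434 genes in the deposited table, and 7 of them were among the 12820 genes that passed the filter on low counts. They were picked by name with the comparison of Bach2KO and Bach2WT mice already known, so that their difference between the genotypes was itself part of the choice. The genotype values of these 10 genes are therefore given as a description and without a test. The sex of the mice was not used in the choice and was tested.

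RNA-seq was performed on pancreatic tissue of 4 Bach2KO and 4 Bach2WT mice, with 2 females (mice 1 and 2) and 2 males (mice 3 and 4) per genotype. All mice were untreated, 18 weeks old and of the C57BL/6N-Bach2tm1b(EUCOMM)Wtsi/leg line, in which the knockout is constitutive and present in every cell of the body. The comparison asks how the loss of Bach2 affects gene expression in the pancreas. In such bulk tissue, fewer cells of a type and less RNA per cell cannot be told apart.

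Acute-phase proteins are secreted plasma proteins, made mostly by the liver but also by epithelia and immune cells, whose synthesis responds to inflammatory cytokines. Interleukin-6 type cytokines act through receptors that share the chain gp130 and through the transcription factor STAT3, which turns on both acute-phase genes and the feedback inhibitor SOCS3. Alarmins are proteins released by damaged or activated cells, such as the calprotectin subunits of neutrophils and interleukin-33 of stromal and endothelial cells, which alert neighbouring cells through Toll-like receptors and receptors of the interleukin-1 family.

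Short promoter sequences are shown for the members whose window holds the letters of a factor at the end of these pathways. RefSeq promoter windows (GRCm38.p6, 250 bases before to 50 after each annotated start) were found for 9 of the 10 genes, all except Hp, and were searched on both strands for 4 motifs. The motifs were TTGCNNAA for C/EBP factors, TTCNNNGAA for STAT factors, GGGNNNTTCC for NF-κB and TGANTCA for AP-1. The stretches around the matches upstream of the start are given 5′ to 3′ on the strand of the gene, with the match in capitals.
Lcn2: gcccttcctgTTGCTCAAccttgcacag
S100a9: gtaggctgtcTTGCTTAAgatttgggcg
Saa3: gtaagtgggaTTATGCAAgatcaaacag
Il33: atcgctccatTTGCATAActttactcat
Socs3: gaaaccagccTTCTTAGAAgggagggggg
Lrg1: acccggccctGGGCTCTTCCtgctttgcct
The first 4 sequences hold the C/EBP letters, with Saa3 in the reverse orientation. They lie at chr2:32387938-32387965 (minus strand), chr3:90695940-90695967 (minus), chr7:46715758-46715785 (minus) and chr19:29945695-29945722 (plus). The match starts 216, 236, 99 and 85 bases before the annotated start of the window, which need not be the first start of the gene. The C/EBP letters were thus present in 4 of the 9 genes, or 4 of their 10 windows, against 10.8% of all 32851 windows. The STAT, NF-κB and AP-1 letters were each in 1 of these 10 windows. The STAT letters were found in Socs3 only, 154 bases before the start (chr11:117969502-117969530, minus), against 8.3% of windows. The NF-κB letters were found in Lrg1, 34 bases before the start (chr17:56121961-56121990, minus), against 5.56%. The AP-1 letters lay within the transcribed part of Osmr, and 7.81% of windows held them. None of the 4 motifs was present in the windows of S100a8 and Il1b. A match is a description of these letters and not of a bound site.

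Certain properties of the libraries touch the values below. The libraries held 72299745 to 172029360 counts on genes, and digestive enzymes took 81.6 to 84.4% of them, as befits pancreatic tissue. All 10 genes were low beside these, and a count of 0 allows up to 3 counts, or 0.0155 to 0.0432 CPM (counts scaled to a common library size with TMM normalization) depending on the library. Mouse Bach2KO 3, which had the fewest counts, stood apart on the first principal component (23.3% of the variance), with a score of 101.8 against −34.8 to 7.22 in the other 7 mice. Values of the 10 genes that rest on this mouse are given with and without it. The knocked-out gene could not serve as a check of the labels. Bach2 had 3 to 16 counts in Bach2KO and 4 to 31 in Bach2WT libraries, did not pass the filter, and averaged 0.0915 ± 0.0515 CPM (SD, n = 4) and 0.0943 ± 0.0844 CPM, respectively.

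**Figure D1:**
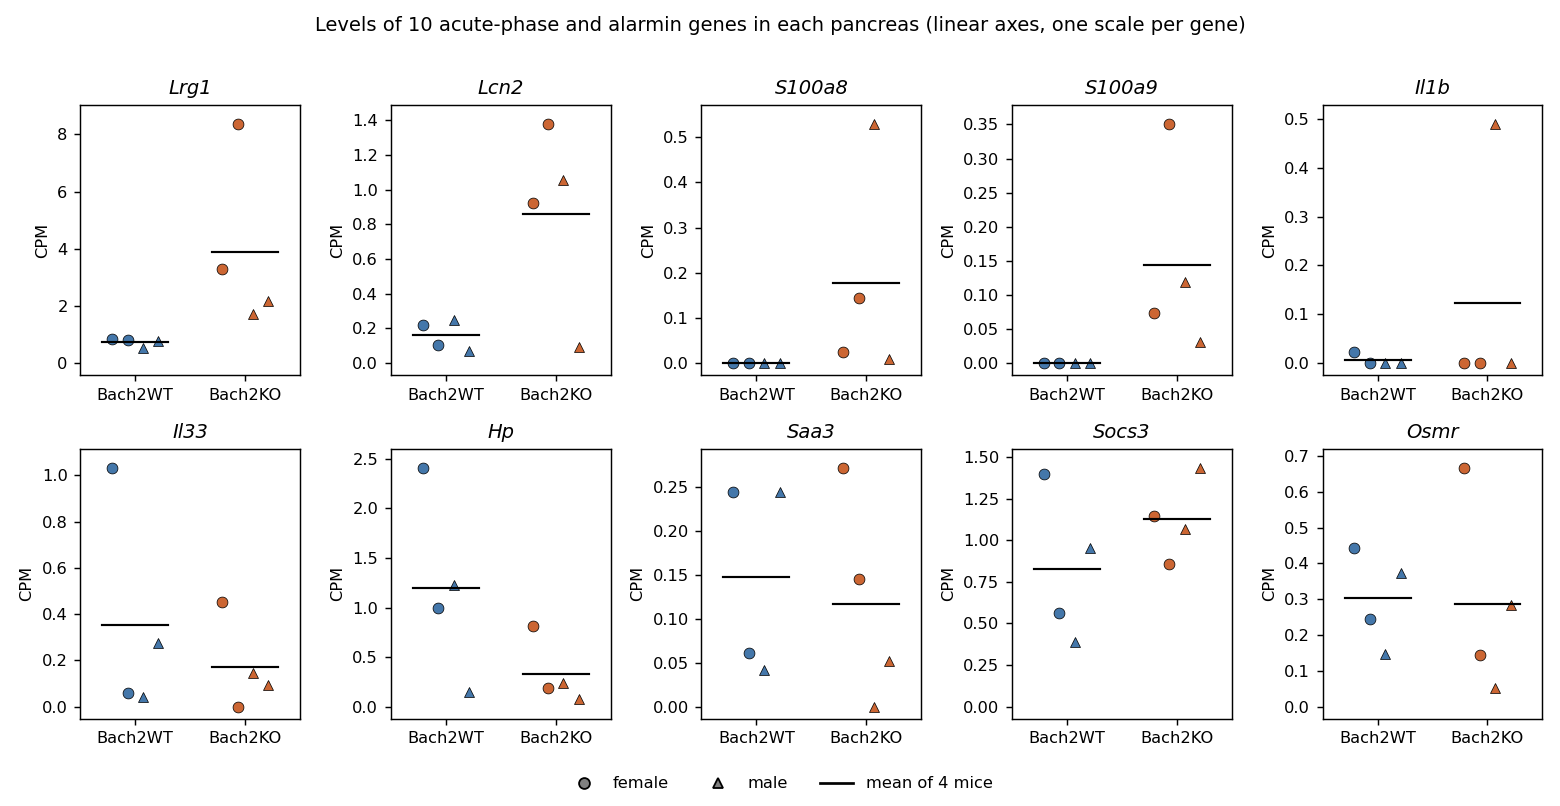
Levels of the 10 genes in each mouse, in CPM on a linear axis with a separate scale per gene. Circles are females, triangles are males and the line is the mean of 4 mice. Lrg1, S100a8 and S100a9 are the genes in which all 4 Bach2KO points lie above all 4 Bach2WT points, where S100a8 and S100a9 are at 0 in Bach2WT and partly within the floor of 3 counts in Bach2KO.

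With counts of 0 taken as exact, the genotypes did not overlap in 3 of the 10 genes, Lrg1, S100a8 and S100a9, which had the higher values in Bach2KO mice. Only Lrg1 was separated beyond the floor of 3 counts, since the floor of the Bach2WT libraries (0.0209 to 0.0432 CPM) covered the S100a8 values of Bach2KO 1 and 4 and the S100a9 value of Bach2KO 4. Among all 21434 genes, with zeros again as exact, 2.01% were separated in this direction and 1.28% in the opposite one, in which none of the 10 genes was. In the edgeR quasi-likelihood test, 1 of 12820 genes (0.0078%), the ribonuclease gene Rnase2a, was significantly higher in Bach2KO mice and 0 (0%) were lower at an adjusted p under 0.05. No test result is given for the 10 genes, since this contrast was known when they were chosen. An unadjusted p under 0.05 was reached by 957 genes, 500 of them higher and 457 lower in Bach2KO mice, or 3.9% and 3.56% of the genes tested.

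Among the secreted proteins, Lrg1 and Lcn2 were more abundant in Bach2KO pancreas, while Hp was less abundant and Saa3 similar in range. Lrg1 (ENSMUSG00000037095, 17:56426678-56429001 on GRCm39) encodes leucine-rich alpha-2-glycoprotein, an inducible plasma glycoprotein that modulates TGF-β signalling in the vessel wall. It measured 3.30, 8.36, 1.70 and 2.17 CPM in Bach2KO mice 1 to 4 and 0.833, 0.815, 0.515 and 0.777 CPM in Bach2WT mice 1 to 4. All Bach2KO mice lay above all Bach2WT mice, and the Bach2WT values were tightly grouped while those of Bach2KO spread widely. The means were 3.88 ± 3.06 and 0.735 ± 0.148 CPM (SD, n = 4 each), or a fitted log2 fold change of 2.40 ± 0.45 (SE). The highest value belonged to female Bach2KO 2, without which the log2 fold change was 1.71. Without Bach2KO 3 it was 2.62. The separation rested on 129 to 692 counts per Bach2KO library and 54 to 107 per Bach2WT library.

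Lcn2 (ENSMUSG00000026822, 2:32274645-32278264), which encodes lipocalin 2, an antibacterial protein that binds iron-loaded siderophores, followed with a log2 fold change of 2.37 ± 0.70. It measured 0.920, 1.38, 1.06 and 0.0933 CPM in Bach2KO mice and 0.222, 0.107, 0.251 and 0.0720 CPM in Bach2WT mice. The first 3 Bach2KO mice were above all Bach2WT mice, but male Bach2KO 4 was below 3 of them, so that the genotypes overlapped. The means were 0.862 ± 0.547 and 0.163 ± 0.0868 CPM. When mice were left out one at a time, the log2 fold change stayed between 2.05 (without Bach2KO 2) and 2.75 (without Bach2KO 4).

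Hp (ENSMUSG00000031722, 8:110301760-110305804) encodes haptoglobin, the carrier of free haemoglobin, and had the lower level in Bach2KO mice. It measured 0.809, 0.193, 0.238 and 0.0777 CPM in Bach2KO mice and 2.41, 0.998, 1.23 and 0.144 CPM in Bach2WT mice. A total of 3 Bach2WT mice exceeded every Bach2KO mouse, and the fourth, male Bach2WT 4, lay within the Bach2KO range. The means were 0.329 ± 0.327 and 1.19 ± 0.934 CPM, with a log2 fold change of −1.84 ± 0.75. Its size depended on single mice, from −2.86 without Bach2KO 1 to −1.26 without Bach2WT 1.

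Adipose tissue also expresses Hp, and markers of adipocytes are set beside it. The 9 adipocyte markers, all found in the table, summed to 30.7, 13, 15.8 and 14.4 CPM in Bach2KO mice and 39.7, 28.3, 15.3 and 14.1 CPM in Bach2WT mice. The mouse with the highest sum in each genotype was the one with the highest Hp, and the ranges of the genotypes overlapped. Bach2KO 3 and Bach2WT 3 had sums of 15.8 and 15.3 CPM, of which Pnpla2 made up 10.8 and 10.5 CPM. Hp measured 0.238 and 1.23 CPM in these mice, and Cfd had 0 and 337 counts. Pnpla2, the most abundant of the markers, measured 11.4 ± 3.12 and 12.7 ± 2.69 CPM (log2 fold change −0.16 ± 0.21). Of the 7 markers tested, 0 passed the threshold, and their median log2 fold change was −1.12. The fitted value was below 0 for 5 of them and above 0 for Fabp4 (0.21) and Lipe (0.24). Cfd (adipsin) had 1196, 0, 0 and 273 counts in Bach2KO mice and 956, 794, 337 and 27 counts in Bach2WT mice. Adipoq and Plin1, a hormone and a lipid droplet protein of adipocytes, were selected after their values were seen. Adipoq had 48, 0, 0 and 2 counts in Bach2KO mice and 215, 259, 0 and 0 in Bach2WT mice. Plin1 had 14, 0, 0 and 0 against 101, 105, 44 and 14 counts, with a log2 fold change of −4.57 ± 1.14 and an adjusted p of 0.367 in edgeR. The sum over 9 hepatocyte markers was 8.97 to 26.7 CPM in Bach2KO and 17.0 to 27.4 CPM in Bach2WT mice. Most of it was Ttr (15.7 ± 7.75 and 16 ± 5.57 CPM), which pancreatic islets also express, while the albumin gene Alb, selected after its values were seen, measured 0.604 ± 0.645 and 0.550 ± 0.222 CPM. The part of these cells in the Hp values was not tested.

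Saa3 (ENSMUSG00000040026, 7:46361422-46365124) encodes serum amyloid A3, an apolipoprotein made outside the liver, and showed no separation. It measured 0.272, 0.145, 0 and 0.0518 CPM in Bach2KO mice and 0.244, 0.0610, 0.0418 and 0.245 CPM in Bach2WT mice. Both genotypes covered nearly the same range, and the mouse at 0 was Bach2KO 3. The log2 fold change of −0.29 ± 1.06 changed its sign to 0.08 without that mouse, to 0.07 without Bach2WT 1 and to 0.05 without Bach2WT 4.

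Both calprotectin subunits had counts above 0 in every Bach2KO library and 0 counts in every Bach2WT library, although the 2 counts of S100a8 in Bach2KO 4 lay within what a count of 0 allows. S100a8 (ENSMUSG00000056054, 3:90576285-90577342) and S100a9 (ENSMUSG00000056071, 3:90599939-90603028) are neighbouring genes whose products form a calcium- and zinc-binding dimer that is abundant in neutrophils and monocytes. S100a9 had 12, 29, 9 and 6 counts in Bach2KO mice, or 0.0741, 0.350, 0.119 and 0.0311 CPM. S100a8 had 4, 12, 40 and 2 counts, or 0.0247, 0.145, 0.528 and 0.0104 CPM. In mice 1, 2 and 4 there were more counts of S100a9 than of S100a8, whereas in Bach2KO 3 the order was reversed. Both genes failed the filter on low counts, and the values rest on a small number of reads.

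Measured against a floor of 3 counts in each Bach2WT library, the mean of S100a9 in Bach2KO mice (0.144 ± 0.142 CPM) was at least 4.78-fold higher, and at least 5.05-fold higher without Bach2KO 3. For S100a8 (0.177 ± 0.242 CPM) the bound was at least 5.89-fold with Bach2KO 3 and at least 2.00-fold without it, the mean then being 0.0600 ± 0.0739 CPM. Bach2KO libraries with more than 3 counts numbered 4 for S100a9 and 3 for S100a8. If both mates of each read pair had been counted, the floor would be 6 counts, with bounds of 2.39-fold for S100a9 and 2.95-fold for S100a8. Without Bach2KO 3 the mean of S100a8 then stood at 0.998 times that floor.

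Marker genes of neutrophils, a main source of calprotectin, were low in all libraries. The 13 markers of this list in the table summed to 0.859 to 2.96 CPM in Bach2KO mice and 0.317 to 0.811 CPM in Bach2WT mice, a separation by a narrow margin. The highest sum was that of Bach2KO 2, the mouse with the most S100a9. Mmp9, a matrix metalloproteinase that other cells also make, had the highest level of the list with 0.806 ± 0.506 and 0.439 ± 0.109 CPM, but was lower in Bach2KO 1 (0.0865 CPM) than in any Bach2WT mouse. Retnlg, a resistin-like protein of neutrophils, had 60, 48, 0 and 6 counts in Bach2KO mice and 0, 6, 2 and 0 in Bach2WT mice. The granule genes Mpo and Camp, picked after their values were seen, were close to absent, with counts above 0 in Bach2KO 4 alone for Mpo (6 counts) and 2 counts each in Bach2KO 4 and Bach2WT 1 for Camp. Of the other markers under the filter, Il1r2 (0.201 and 0 CPM) and Cd177 (0.104 and 0.00555 CPM) had higher means in Bach2KO mice. So did, near the floor, Prtn3, Mmp8, Trem1, Ngp and Cxcr2, whereas Elane was lower (0 and 0.0167 CPM). Il1r2 was the 1 of the 13 markers without overlap, against 2.01% of all genes in this direction. Only 2 markers passed the filter, Mmp9 (log2 fold change 0.86 ± 0.60) and the receptor gene Csf3r (1.40 ± 1.22), and neither passed the threshold. The 14 markers of monocytes and macrophages summed to 25.0 to 41.2 CPM in Bach2KO (34.8 CPM at most without Bach2KO 3) and 17.7 to 33.8 CPM in Bach2WT mice, with a median log2 fold change of 0.81 and 0 of 14 past the threshold. The part of these cells in the S100a8 and S100a9 values was not tested.

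**Figure D2:**
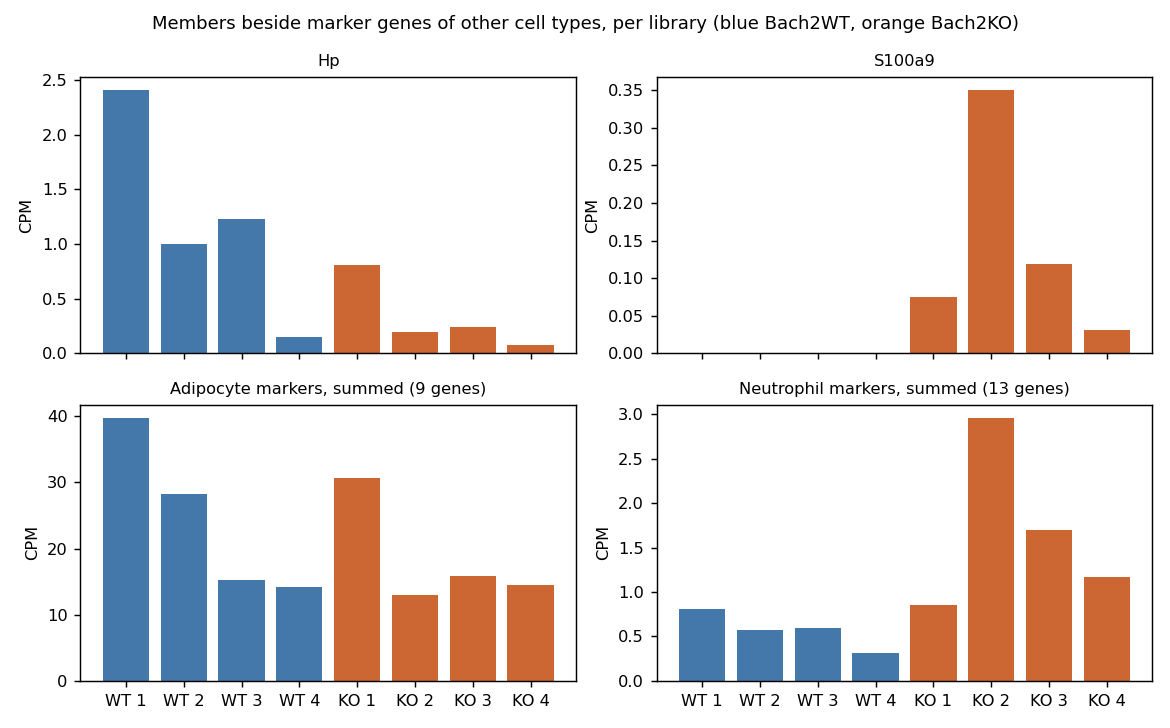
Hp and S100a9 (top) above the summed markers of adipocytes and neutrophils (bottom), in CPM per library on linear axes from 0, with Bach2WT in blue and Bach2KO in orange. Hp and the adipocyte sum are highest in Bach2WT 1 (2.41 and 39.7 CPM), and S100a9 and the neutrophil sum are highest in Bach2KO 2 (0.350 and 2.96 CPM).

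The alarmin Il33 and the cytokine Il1b did not share this pattern. Il33 (ENSMUSG00000024810, 19:29902514-29938118) encodes a nuclear protein of stromal and endothelial cells that acts through the receptor Il1rl1 (ST2) when released. It measured 0.451, 0, 0.145 and 0.0933 CPM in Bach2KO mice and 1.03, 0.0610, 0.0418 and 0.274 CPM in Bach2WT mice. The ranges overlapped, and the highest mouse of each genotype was female 1. The log2 fold change of −0.99 ± 1.12 rested on these females, since it was −2.12 without Bach2KO 1 and turned to 0.52 without Bach2WT 1. Il1b (ENSMUSG00000027398, 2:129206490-129213059), the main inflammatory cytokine of activated myeloid cells, was read in a single mouse of each genotype. It had 37 counts (0.489 CPM) in Bach2KO 3 and 2 counts (0.0222 CPM) in Bach2WT 1, and 0 counts in the other 6 mice. Without Bach2KO 3, no counts of Il1b were left in Bach2KO mice. The same mouse was the one with counts of Il6 (12 counts, 0.159 CPM) and had the highest S100a8.

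On the receiving side, Socs3 and Osmr overlapped between the genotypes. Socs3 (ENSMUSG00000053113, 11:117856905-117860873), the feedback inhibitor of gp130 signalling, measured 1.14, 0.857, 1.07 and 1.44 CPM in Bach2KO mice and 1.40, 0.564, 0.390 and 0.950 CPM in Bach2WT mice. The Bach2WT mice spanned the range of 3 of the Bach2KO mice. The means were 1.13 ± 0.239 and 0.826 ± 0.448 CPM, and the log2 fold change of 0.46 ± 0.39 became 0.22 without Bach2WT 3 and 0.85 without Bach2WT 1. Osmr (ENSMUSG00000022146, 15:6843058-6904450) encodes the receptor chain for oncostatin M that pairs with gp130. It measured 0.667, 0.145, 0.0528 and 0.285 CPM in Bach2KO mice and 0.444, 0.244, 0.146 and 0.374 CPM in Bach2WT mice, and the Bach2KO mice lay on both sides of the Bach2WT range. Its log2 fold change was −0.04 ± 0.72 and took values from −0.86 to 0.28 when single mice were left out.

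**Figure D3:**
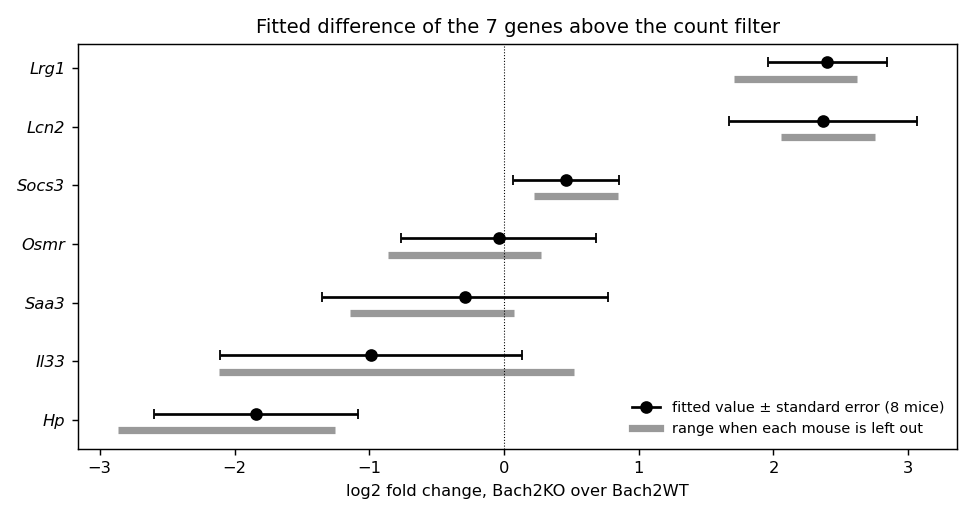
Fitted log2 fold change of Bach2KO over Bach2WT for the 7 genes that passed the filter (points with standard errors, 8 mice) and its range when each mouse was left out (grey bars). The bars of Lrg1, Lcn2 and Socs3 stay above 0, that of Hp stays below 0, and those of Osmr, Saa3 and Il33 cross 0.

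Compared per length, the order of the genes differed between the genotypes. On the deposited FPKM scale, Bach2WT pancreas had Hp (0.731 ± 0.568) and Lrg1 (0.515 ± 0.102) in the first places, followed by Socs3 (0.281 ± 0.151), Il33 (0.120 ± 0.158), Lcn2 (0.0612 ± 0.0326), Saa3 (0.0559 ± 0.0422) and Osmr (0.0246 ± 0.0107). Each of these neighbours overlapped in range, and only the step from Osmr to Il1b (0.00285 ± 0.00569) did not. In Bach2KO pancreas, Lrg1 led with 2.67 ± 2.10 FPKM and did not overlap with Socs3 in the second place (0.378 ± 0.0815). Lcn2 (0.318 ± 0.202), S100a9 (0.267 ± 0.264), S100a8 (0.250 ± 0.343) and Hp (0.197 ± 0.192) came next, and from Socs3 downwards all neighbours overlapped. Il1b, Il33, Saa3 and Osmr ended the order with 0.0630, 0.0573, 0.0430 and 0.0228 FPKM. Lrg1, the most abundant member, ranked 2078th of all 21434 genes by its mean FPKM over the 8 mice.

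Sex was tested next, since it had no part in the choice of the genes. The edgeR test of males against females used all 8 mice, with genotype as a covariate. In this test, 2 of 12820 genes were significantly higher in males (0.0156%) and 2 were lower (0.0156%). None of the 7 members tested passed the threshold. The lowest adjusted p-values were those of Lrg1, with a log2 difference of −1.01 ± 0.35 and an adjusted p of 0.890, and of Hp, with −1.50 ± 0.66 and the same adjusted p. Lrg1 averaged 1.29 ± 0.775 CPM in the 4 males and 3.33 ± 3.55 CPM in the 4 females, and Hp averaged 0.421 ± 0.540 and 1.10 ± 0.937 CPM. For the other 5 members the adjusted p lay between 0.905 and 0.980. The 3 genes under the filter were compared with a two-sided exact permutation test of CPM that exchanged all 8 mice regardless of genotype, so that the spread between the genotypes entered it. The permutation test gave p = 0.886 for S100a8 and 0.714 for S100a9 (both 1.0 after adjustment over the 10 genes), with 0.0286 as the smallest p it allows. Il1b, with counts in 2 mice, could not reach a p below 0.429 in this exact test and is not judged by it.

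The difference between the genotypes was also set against sex. The ratio of the Bach2KO to the Bach2WT mean of Lrg1 was 7.08 in females and 2.99 in males, and that of Lcn2 was 6.99 and 3.56. For Hp it was 0.294 in females and 0.230 in males, and for Il33 0.412 and 0.757. Socs3 had ratios of 1.02 and 1.87. The ratios of these 5 genes had the same direction in both sexes, although that of Socs3 in females showed almost no difference. Saa3 (1.37 and 0.181) and Osmr (1.18 and 0.649) had opposite directions. In males, the ratio of Lcn2 rested on Bach2KO 3 (1.06 CPM). The other male, Bach2KO 4 (0.0933 CPM), lay below the mean of the Bach2WT males (0.161 CPM). The interaction of genotype and sex, with 2 mice in each cell, passed the threshold for 0 of 12820 genes in either direction (0% each), with 787 genes at an unadjusted p under 0.05. The members had adjusted p-values from 0.835 to 0.996 in this edgeR test. The interaction of Lrg1 was −1.22 ± 0.61 on the log2 scale, with an adjusted p of 0.835.

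The genes that signal upstream and downstream of the members were followed as 6 lists. In each list 0 genes passed the threshold of the edgeR test in either direction, against a median log2 fold change of 0.05 over all genes tested. The medians were 0.26 for 9 other acute-phase genes, 0.10 for 8 other alarmins, 0.45 for 20 genes of interleukin-6 family signalling, 0.36 for 12 genes of interleukin-1 family signalling, 0.77 for 15 targets and feedback genes of NF-κB, and 0.02 for 16 receptors and partners of the members.

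**Figure D4:**
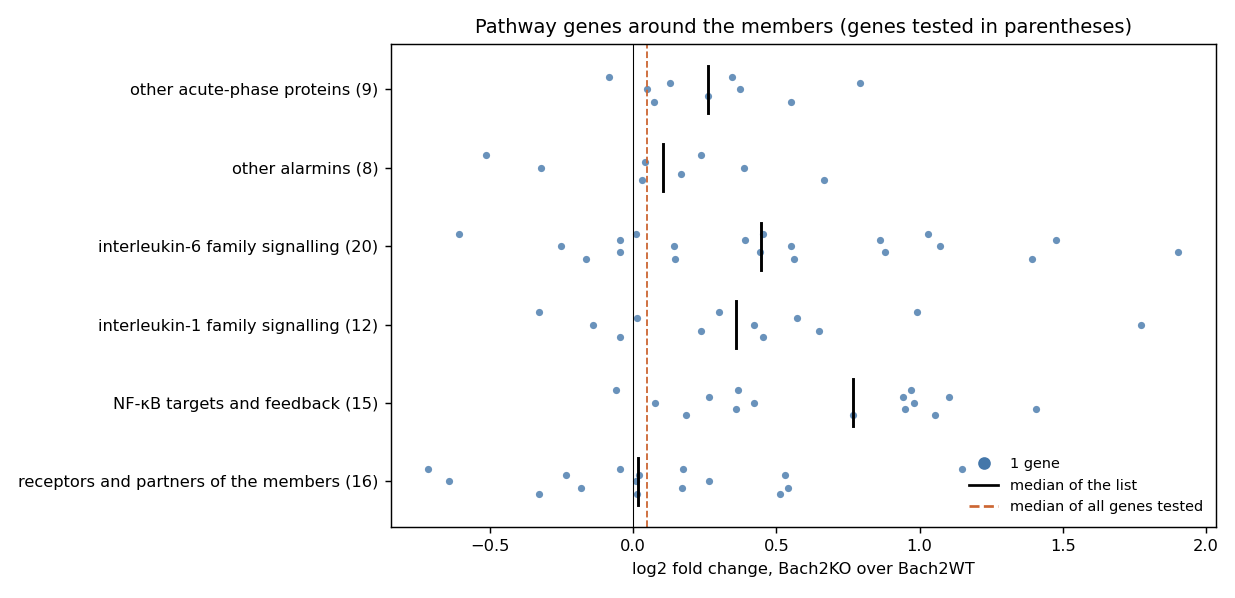
Log2 fold change of Bach2KO over Bach2WT for each tested gene of 6 pathway lists (points), with the median of each list (black line) and of all 12820 genes tested (dashed line, 0.05). The NF-κB list lies furthest to the right with a median of 0.77, and the receptors are centred near 0 with 0.02.

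The ligands of the interleukin-6 family were barely present. Il6 had 12 counts in Bach2KO 3 and Osm, the ligand of Osmr, had 4 counts in Bach2KO 1, with 0 counts in the other 7 mice for each. Lif had 6 counts in Bach2KO 1 and 4, 10 and 6 counts in Bach2WT mice 2 to 4. The shared receptor chain gp130 (Il6st) measured 4.65 ± 1.32 CPM in Bach2KO and 4.80 ± 1.65 CPM in Bach2WT mice. The receptor Il6ra measured 2.82, 1.39, 0.991 and 1.53 CPM in Bach2KO mice and 0.955, 0.983, 0.926 and 0.806 CPM in Bach2WT mice. It was separated by a narrow margin, at a log2 fold change of 0.88 ± 0.33 (edgeR adjusted p = 0.606).

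Among the transcription factors, Stat3 measured 7.61 ± 3.51 CPM in Bach2KO and 5.83 ± 2.04 CPM in Bach2WT mice. The C/EBP factors that act on acute-phase promoters had log2 fold changes of 1.07 ± 0.51 (Cebpb, adjusted p = 0.670) and 1.03 ± 0.51 (Cebpd, adjusted p = 0.695) in edgeR, and that of Cebpd was 0.49 without Bach2KO 3. Bcl3, an atypical IκB protein induced by STAT3, measured 0.298 ± 0.0888 and 0.112 ± 0.0573 CPM. Il6ra and Bcl3 were the 2 genes of the 28 in this list whose genotypes did not overlap. Both were higher in Bach2KO mice, a direction in which 2.01% of all genes were separated.

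In the interleukin-1 family, the decoy receptor Il1r2 was at 0 in Bach2WT mice, as were the calprotectin genes. It had 10, 20, 28 and 25 counts in Bach2KO mice and 0 counts in each Bach2WT mouse, and it also belongs to the neutrophil list. The receptor antagonist Il1rn had 4, 22, 0 and 24 counts in Bach2KO mice and 2, 0, 0 and 0 in Bach2WT mice. The interleukin-33 receptor Il1rl1 had 14, 4, 0 and 26 against 0, 0, 6 and 0 counts. All of these fell under the filter on low counts. The signalling receptor Il1r1 (0.483 ± 0.474 and 0.620 ± 0.726 CPM) and its partner Il1rap (0.139 ± 0.0674 and 0.138 ± 0.143 CPM) overlapped between the genotypes. Irak2, a kinase downstream of these receptors, was separated at 0.961 ± 0.229 against 0.485 ± 0.155 CPM, with a log2 fold change of 0.99 ± 0.37 and an edgeR adjusted p of 0.618. Il1r2 and Irak2 were the 2 separated genes among the 23 of the list, against 2.01% of all genes in this direction. The cytokine-binding protein Il18bp had the larger log2 fold change of 1.77 ± 0.66 (edgeR adjusted p = 0.612).

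The NF-κB list had the highest median, yet 0 of its 15 tested genes passed the threshold, and 4 of them, all higher in Bach2KO mice, had an unadjusted p under 0.05, against 3.9% of all genes. In the same direction there were 2 of 20 such genes in the interleukin-6 list, 2 of 12 in the interleukin-1 list, 1 of 8 among the alarmins and 0 among the acute-phase genes and receptors. In the opposite direction there was 1 alarmin and 1 receptor. Nfkbia, which encodes the inhibitor IκBα, measured 3.44 ± 1.63 CPM in Bach2KO and 1.66 ± 0.297 CPM in Bach2WT mice, and the adhesion molecule Icam1 0.861 ± 0.299 and 0.323 ± 0.149 CPM. Their log2 fold changes of 1.05 ± 0.32 and 1.41 ± 0.44 had the same edgeR adjusted p of 0.531. Icam1 was the only one of the 20 genes in the list whose genotypes did not overlap, against 2.01% of all genes in this direction. Markers of endothelial cells, which also express Icam1, summed to 30.3, 21.4, 44.1 and 24.5 CPM in Bach2KO mice 1 to 4 and 17.5 to 25.5 CPM in Bach2WT mice, with a median log2 fold change of 0.50. The highest sum was that of Bach2KO 3, without which the log2 fold change of Icam1 was 1.14. The part of these cells in the Icam1 values was not tested.

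The receptors of the members had a median close to that of all genes. Toll-like receptor 2 (Tlr2) measured 0.403 ± 0.166 and 0.401 ± 0.0625 CPM, and Tlr4, through which calprotectin signals, was under the filter at 0.0768 ± 0.0622 and 0.0468 ± 0.0936 CPM. The co-receptor Cd14, at the same time a marker of monocytes, measured 0.770 ± 0.293 and 0.341 ± 0.216 CPM (log2 fold change 1.15 ± 0.60, edgeR adjusted p = 0.719). It was separated by a narrow margin, with 0.543 CPM in the lowest Bach2KO and 0.526 CPM in the highest Bach2WT mouse. Cd14 was the 1 gene of 22 in this list without overlap, against 2.01% of all genes in this direction. The lipocalin 2 receptor Slc22a17 (log2 fold change 0.17 ± 0.39), the haptoglobin receptor Cd163 (−0.18 ± 0.41) and endoglin (Eng, 0.53 ± 0.28), a partner of Lrg1, had adjusted p-values of 0.960, 0.960 and 0.728 in edgeR, and the value of Eng was 0.11 without Bach2KO 3. Bsg, a calprotectin receptor found in many cell types, had a log2 fold change of −0.64 ± 0.22 (edgeR adjusted p = 0.552).

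Among other acute-phase genes and alarmins, none of the 16 genes of either list was separated between the genotypes. These were the genes found of 24 acute-phase genes and 19 alarmins listed, and Saa1, Saa2 and Hpx were among those not found. Only 9 and 8 of them, respectively, passed the filter on low counts. Of all genes, 2.01% were separated as higher and 1.28% as lower in Bach2KO mice. Itih4, a plasma protein of the inter-alpha-trypsin inhibitor family, measured 57.7 ± 22.5 and 33.4 ± 29.2 CPM (log2 fold change 0.79 ± 0.53), and the metallothioneins Mt1 and Mt2 had log2 fold changes of 0.34 ± 0.33 and 0.37 ± 0.41. Among the S100 proteins outside calprotectin, S100a6 had a log2 fold change of 0.67 ± 0.28, S100a1 of −0.51 ± 0.19 and S100a16 of −0.32 ± 0.19. Their edgeR adjusted p-values were 0.643, 0.621 and 0.772.

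Finally, the genes that varied most like each tested member across the 8 libraries were listed by the Pearson correlation of log2 CPM, as a description of the same 8 libraries in which depth and tissue make-up are shared. Lrg1 was followed most closely by Med24 (r = 0.967), Nudcd1 (0.930) and Tlk1 (0.928), and Lcn2 by Fabp5 (0.961), Poc1b (0.943) and Sptlc2 (0.928). The genes most like Hp were the immunoglobulin genes Ighg1 (0.981) and Ighd (0.964) and the B-cell receptor for IgE, Fcer2a (0.947). Ighg1 measured 0.185, 0, 0.0264 and 0 CPM in Bach2KO mice and 0.999, 0.305, 0.348 and 0 CPM in Bach2WT mice, an order of mice close to that of Hp. Saa3 was followed by Plcxd2 (0.989), Malt1 (0.981) and Lmo7 (0.977), Il33 by Aebp1 (0.959), Nsmce2 (0.941) and Zmat2 (0.940), Socs3 by Arl15 (0.969), Il27ra (0.967) and Sorcs2 (0.951), and Osmr by 9130019O22Rik (0.988), Setd7 (0.962) and Sertad2 (0.958). No member was among these nearest genes of another.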

How the data were processed

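Poly-A-selected RNA of homogenized pancreas was sequenced as paired-end reads. The submitters' processing notes name fastp, HISAT2 2.2.1, featureCounts 2.0.6 and the build mm39 (GRCm39). Whether the libraries were directional and whether both mates of a pair were counted is not given in the sources used here, so that overlapping antisense genes cannot be told apart. The authors deposited raw counts per gene, a normalized signal (the counts divided by 1 size factor per library) and FPKM values made from that signal and the gene length. The table also holds log2 fold changes with raw and adjusted p-values from a comparison by the authors, which were not used. All columns of library values were matched to a sample by name (0 were not).

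Everything else was computed from the counts. CPM values were normalized with TMM factors. Genotype (4 against 4, no covariate), sex (with genotype as a covariate) and their interaction (with genotype and sex) were tested over 8 mice with edgeR 4.0.16 (filterByExpr, quasi-likelihood F test, Benjamini-Hochberg adjustment over 12820 genes, threshold 0.05). The p-values measure the spread between these mice. Standard errors are the log2 fold change divided by the square root of F. On counts simulated for the genotype comparison (12820 genes), 188 of 200 genes changed by 2 on the log2 scale were recovered, with 9 false calls. These 200 genes were drawn from those above the median level, and recovery of genes below that level was not measured. The libraries held 72299745 to 172029360 counts, and the floor of 3 counts covers counting error only. Each fit was repeated with DESeq2 1.42.0, with RLE factors or library sizes that leave out digestive enzymes, with other filters, with counts divided by 2, and without each mouse in turn, and the genotype fit also with sex or the replicate number as a further term. Unfiltered DESeq2 and a floor of 6 counts were chosen after seeing the data.

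The members, the gene lists and the tests were chosen with earlier results of these data known. Named genes were the members, their main ligands, receptors and transducers, the 3 genes with the smallest p in each pathway list, the 2 most abundant genes of each marker list (by mean FPKM, tested or not), Bach2, and the 3 genes most correlated with each tested member. Rnase2a, Csf3r, Cpa1, Epcam, Fabp4 and Lipe were named after their values were seen. Some genes that the rule would name are not reported here. Promoter sequences came from RefSeq (GRCm38.p6), and their coordinates were not mixed with those of GRCm39. Marker lists of fibroblasts, mesothelium, duct, acinar and islet cells had 0 genes past the threshold and median log2 fold changes of 0.13, 0.05, 0.12, −0.28 and 0.33.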

Additional observations from a re-analysis of the deposited data

Results flagged for a closer look

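Il1b was flagged in both genotypes because a single library stood apart from the other 3 of its group. In Bach2KO mice, the value was 0.489 CPM in male 3 and 0 in the other mice. In Bach2WT mice, it was 0.0222 CPM in female 1, from 2 counts, and 0 in the others. Chance flags about 1 in 20 groups of normally distributed values, and more often at such counts, since with 3 libraries at 0 any count in the fourth is flagged.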

How the results depend on the processing

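Depth and the spread between mice set the limits here: S100a8, S100a9 and Il1b had at most 40 counts in any library, and even counts made up 58.9 to 62.0% of the values above 0. The number of genes significantly higher in Bach2KO mice moved from 1 to 38 with DESeq2, 55 with no filter, 57 with DESeq2 and no filter, and 0 with at least 10 counts in every mouse, with counts divided by 2, with sex as a covariate, and in each fit that left out a mouse (0 to 0). The number of lower genes moved from 0 to 20, 18 and 23 in the first 3 of these fits. Genes of the pathway and marker lists past the threshold moved from 0 to 1 (Plin1) with no filter and to 3 (Il1r2, Cpa1 and Epcam) with DESeq2 and no filter. For sex, 4 genes became 12 with DESeq2, 152 with no filter, 1 with at least 10 counts in every mouse, and 2 to 9 when mice were left out. For the interaction, 0 became 23 with DESeq2, 92 with no filter, and 0 to 6 when mice were left out (6 without Bach2KO 2). The causes were not tested. No member passed the threshold for sex or interaction under any of the alternatives run for these tests. Lrg1, Lcn2, Hp and Socs3 kept the sign of the genotype difference in every alternative that gave a value, while Saa3 changed sign in 3, Il33 in 1 and Osmr in 5. With the replicate number as a block, 0 genes were higher in Bach2KO mice. The numbers were not taken to pair the mice. The deviations of same-numbered mice correlated with r = 0.21, −0.03, −0.04 and −0.05 over genes, and those of differently numbered mice with −0.16 to 0.11. The value of the mice numbered 1 was thus the highest of all pairs.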
